A study of Mus musculus with 8 samples.

Results

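A set of 31 mouse genes that mark microglia and border macrophages was followed in whole embryonic brains, out of 33971 genes in the count table. The set was matched by gene symbol, and all 31 genes were found. It holds 8 border macrophage genes (*Cd163*, *Mrc1*, *Lyve1*, *Pf4*, *F13a1*, *Ms4a7*, *Stab1* and *Folr2*), 6 microglial genes (*P2ry12*, *Cx3cr1*, *Trem2*, *Tmem119*, *Fcrls* and *Sall1*) and 17 genes shared by myeloid cells. The members were selected on known cell type and with the counts and fold changes between the diets in these same 8 brains in view, so no p-value is printed for them, and whether the test over all genes called a member is given as a description that supports nothing. The brains came from wild-type embryos at E14.5, whose mothers ate either a choline-deficient diet (CDD, 4 brains) or normal chow (ND, 4 brains), and each was sequenced in bulk as poly-A RNA. The CDD mothers received their diet from mating to embryo collection. The labels name no treatment other than the diet of the mother and no altered allele in either group. The number of mothers and litters behind the brains is not stated, so the spread between samples may include littermates.

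Microglia are the resident macrophages of the brain tissue, and they enter it early in development from the yolk sac. Border macrophages share that early origin but live in the meninges, around vessels and in the choroid plexus, where they take up proteins, lipids and debris through scavenger receptors. Both depend on the receptor *Csf1r* and on the transcription factor PU.1, the product of *Spi1*. In RNA from a whole brain, fewer cells of a type and less RNA per cell cannot be told apart.

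The 8 libraries held between 31770217 and 43121170 counts, and levels are given as CPM, read counts scaled to the size of the library (trimmed mean of M values, TMM). A single member had between 8 and 3348 counts in a brain. A pair of libraries stood apart. CDD replicate 2 had 4984 counts over 28 *Hox* genes, against 16 to 112 in the other brains, and ND replicate 3 had 2881 CPM of adult globin RNA, against 611 to 1545. Numbers of genes called among the members and the further macrophage, blood cell, signal and haem or iron genes were also obtained without each brain. Other results, among them ratios of reads and summed levels of cell type markers, were not all repeated without these libraries. The labelled tissue was borne out by its markers, since *Tubb3*, *Dcx* and the other 6 brain genes checked were detected throughout. A gene was called where its Benjamini-Hochberg adjusted p-value in edgeR's quasi-likelihood test was under 0.05 over all 19367 genes tested.

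For the members called between the diets, *Cd163*, *Mrc1*, *C1qc* and *Sall1*, the promoter is shown from RefSeq on GRCm38.p6, as 250 bases before and 50 bases after the transcript start. The windows are chr6:124304401-124304700 (plus strand) for *Cd163*, chr2:14229164-14229463 (plus strand) for *Mrc1*, chr4:136892865-136893164 (minus strand) for *C1qc* and chr8:89044113-89044412 (minus strand) for *Sall1*, where the RefSeq start that lies in an annotated GENCODE transcript was taken out of 3. They are read 5′ to 3′ along the gene, and capitals mark GAGGAA, a core that PU.1 is known to bind, on either strand, extended by a base where it continues as GAGGAAG.
Cd163: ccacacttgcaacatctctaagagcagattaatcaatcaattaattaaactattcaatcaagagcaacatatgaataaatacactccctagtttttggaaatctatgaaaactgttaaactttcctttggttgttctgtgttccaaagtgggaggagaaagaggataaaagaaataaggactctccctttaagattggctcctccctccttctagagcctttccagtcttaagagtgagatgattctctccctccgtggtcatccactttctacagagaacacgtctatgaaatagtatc
Mrc1: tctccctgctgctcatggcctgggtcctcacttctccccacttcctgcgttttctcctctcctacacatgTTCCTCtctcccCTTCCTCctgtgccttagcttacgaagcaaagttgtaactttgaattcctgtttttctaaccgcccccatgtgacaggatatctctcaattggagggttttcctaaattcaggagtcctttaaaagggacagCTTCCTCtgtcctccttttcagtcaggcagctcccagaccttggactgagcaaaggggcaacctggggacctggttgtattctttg
C1qc: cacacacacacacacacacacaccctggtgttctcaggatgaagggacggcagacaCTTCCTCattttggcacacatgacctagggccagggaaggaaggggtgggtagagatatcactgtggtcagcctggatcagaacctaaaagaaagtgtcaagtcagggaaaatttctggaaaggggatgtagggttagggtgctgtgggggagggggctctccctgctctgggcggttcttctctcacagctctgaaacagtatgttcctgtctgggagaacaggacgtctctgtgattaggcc
Sall1: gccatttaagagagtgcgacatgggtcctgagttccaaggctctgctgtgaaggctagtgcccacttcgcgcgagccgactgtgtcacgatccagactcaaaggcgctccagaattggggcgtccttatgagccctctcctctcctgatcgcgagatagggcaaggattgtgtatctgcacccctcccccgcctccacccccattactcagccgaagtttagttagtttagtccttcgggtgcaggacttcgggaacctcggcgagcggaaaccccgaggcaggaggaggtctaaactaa
The *Mrc1* window holds 3 copies of GAGGAA, of which 2 continue as GAGGAAG, and all of them lie on the strand opposite to the gene. The *C1qc* window holds 1 copy of the longer form. The *Cd163* and *Sall1* windows hold none, which says only that these letters are absent from these bases. The first 20 bases after the *Cd163* start were not in a GENCODE transcript, so this start is not backed by those transcripts.

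Of the 31 members, 23 had a promoter entry in that table, and the motif was searched on both strands of their 300-base windows. GAGGAA was found in 15 of the 23 (65.2%), against 31.3% of the promoters of 27025 genes. It was present in 5 of 7 border genes and in 10 of 16 microglial and shared genes. GAGGAAG, whose copies are all counted under GAGGAA too, was found in 9 of 23 (39.1%), against 15.4% of all genes. TGCTGA, a motif that Maf factors are known to bind and that is not contained in either of the others, was found in 8 of 23 (34.8%), against 21.7%, including *Stab1* and *Folr2* among the border genes. Among the members without GAGGAA were *Cd163*, *Folr2*, *P2ry12*, *Cx3cr1* and *Sall1*. These matches are a description of letters, and no binding was measured. The promoters of *Csf1r*, *Siglec1*, *Cd14*, *Lyve1*, *Tmem119*, *C1qa*, *Tyrobp* and *Spi1* were not analysed here.

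The levels of the members per transcript length spanned a wide range. By the authors' FPKM (reads scaled to transcript length and library size), *Sall1* stood highest, with a mean of 13.8 over the 8 brains. *Sall1* encodes a zinc finger repressor that marks microglia among macrophages, and it is also a gene of neural progenitors. The complement genes *C1qb* and *C1qa* followed at 7.27 and 6.13 FPKM, then the scavenger receptor gene *Stab1* at 5.59 FPKM. *Pf4*, *C1qc* and *Csf1r* lay close together at 4.09, 4.00 and 3.87 FPKM. *Cd163* stood 26th of 31, at 0.222 FPKM, and *Itgam*, which encodes an integrin chain, was lowest at 0.0849 FPKM. Neighbours in this order overlapped between brains at all but 4 of the 30 steps, which lay between *Sall1* and *C1qb*, *Stab1* and *Cd68*, *Lyve1* and *P2ry12*, and *Tmem119* and *Spi1*.

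**Figure D1:**
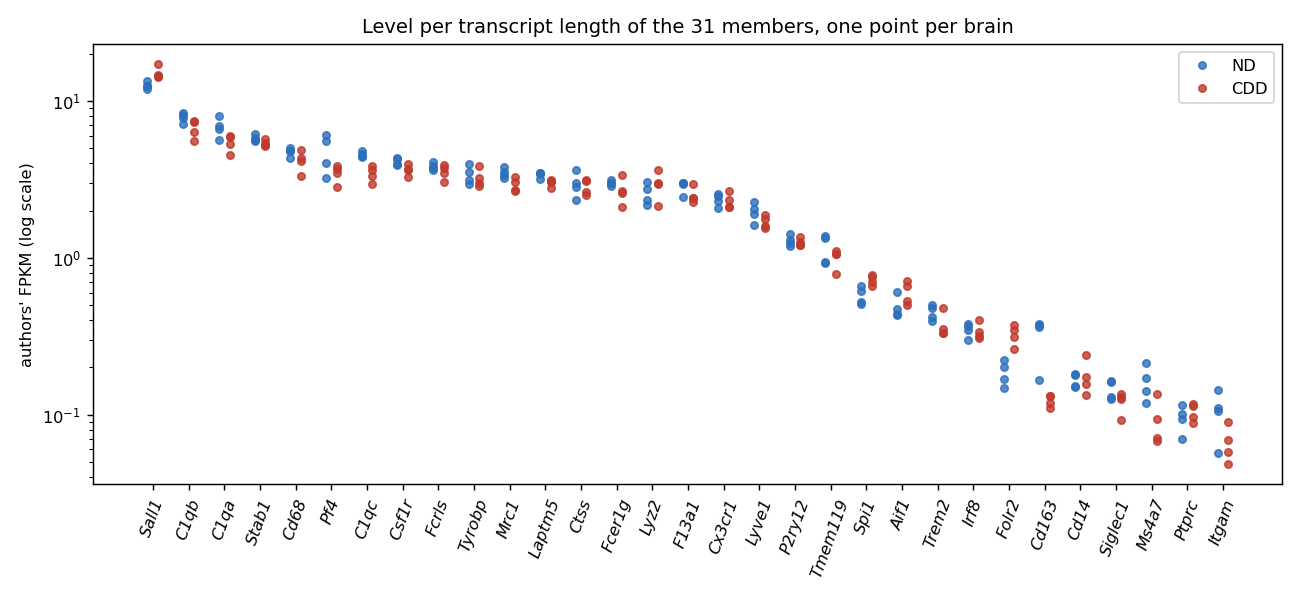
Level of each member per transcript length (the authors' FPKM, log scale) in every brain, ordered by the mean over the 8 brains, with ND brains in blue and CDD brains in red. *Sall1* lies above every other gene, and *Cd163* shows the widest gap between the diets, with 3 ND brains well above the CDD brains and 1 near them.

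Between the diets, *Cd163* stood out among the border genes. It encodes the scavenger receptor that clears haemoglobin bound to haptoglobin, and the authors' table lists it on chromosome 6 from 124281615 to 124307486, on a build that is not named. Its level was 0.725, 0.724, 0.65 and 0.603 CPM in CDD replicates 1 to 4. In ND replicates 1 to 4 it was 2.05, 0.907, 2.08 and 2.00 CPM. All 4 CDD brains lay below all 4 ND brains, and ND replicate 2 lay much nearer to the CDD brains than to the rest of its group. The counts behind these levels were 20 to 28 in CDD and 29 to 72 in ND. Counting error alone gave ND replicate 2 a 95% Poisson interval of 0.607 to 1.30 CPM (exact), which covers the levels of 3 of the CDD brains and stays below those of the other ND brains, 2.00 to 2.08 CPM. The mean was 0.676 ± 0.0596 CPM in CDD and 1.76 ± 0.569 CPM in ND (SD, n = 4), a log2 fold change of -1.38 ± 0.25 (SE), or 2.61-fold lower in CDD. Over all genes tested, 7 had a log2 fold change at or below this one, *Cd163* included. Leaving out each brain in turn gave log2 fold changes from -1.59 to -1.29, the lower end without ND replicate 2.

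*Mrc1*, which encodes the mannose receptor of border macrophages, differed far less. Its level was 19.4, 20.9, 17.01 and 17.16 CPM in CDD replicates 1 to 4. In ND replicates 1 to 4 it was 21.7, 20.8, 24.5 and 22.7 CPM. CDD replicates 1, 3 and 4 lay below every ND brain, and CDD replicate 2 lay just above ND replicate 2. The log2 fold change was -0.27 ± 0.076 (SE), and it ranged from -0.33 to -0.22 over the fits that each omitted a single brain. The gene was called with all 8 brains, but in only 2 of these 8 fits, those without CDD replicate 2 or ND replicate 2. *Mrc1* is listed on chromosome 2 from 14234203 to 14336868.

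Within each brain, the level of *Cd163* was also set against *Mrc1*, a border macrophage gene, and *Csf1r*, which border macrophages share with microglia. *Cd163* reads per 100 *Mrc1* reads came to 3.63 ± 0.169 in CDD (range 3.47 to 3.83) and 7.77 ± 2.31 in ND (range 4.36 to 9.43). All 4 CDD brains lay below all 4 ND brains in this ratio, with ND replicate 2 at the lowest ND value. Per 100 *Csf1r* reads it came to 3.21 ± 0.243 in CDD (range 2.88 to 3.42) and 7.31 ± 2.2 in ND (range 4.02 to 8.67), again without overlap. *Csf1r* shares its listed interval with *Hmgxb3* on the other strand, which had 16175 counts against 6245 and a log2 fold change of 0.02. No test was made of either ratio, since *Cd163* was chosen with its fold change known.

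*Pf4*, a chemokine gene of border macrophages and platelets, and *Ms4a7*, a membrane protein gene of border macrophages, had the next lowest log2 fold changes in the group. *Pf4* had 2.69, 2.52, 2.79 and 2.02 CPM in CDD replicates 1 to 4 and 2.90, 2.34, 4.42 and 4.06 CPM in ND replicates 1 to 4. ND replicates 3 and 4 were high, ND replicate 2 lay among the CDD brains, and the log2 fold change of -0.45 ± 0.18 (SE) was not called with all brains or with 7 of the 8 possible omissions, but was called without ND replicate 2. *Ms4a7* had 0.423, 0.319, 0.604 and 0.302 CPM in CDD and 0.761, 0.531, 0.954 and 0.638 CPM in ND, from 10 to 33 counts in a brain. Only CDD replicate 3 reached into the ND range, and the log2 fold change of -0.78 ± 0.31 (SE) was called, among the fits that left out a brain, only without that one. For *Pf4*, the summed level of 9 platelet and megakaryocyte genes was 7.06 to 8.32 CPM in CDD and 6.38 to 7.28 CPM in ND, with means of 7.66 and 6.80 CPM. Of these, 4 were tested, and edgeR, DESeq2 and limma-voom called 0. At an unadjusted p under 0.05 there was 1 of the 4, beside 23.9% of all genes tested. All 4 had log2 fold changes above 0, from 0.04 to 0.90, with a median of 0.29. For 1 of the 4 the ranges of the diets were separate, with CDD the higher. The most abundant were *Itga2b*, at 3.71 ± 0.299 and 3.62 ± 0.102 CPM, and *Gp1ba*, at 2.10 ± 0.363 and 1.94 ± 0.23 CPM (CDD and ND).

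The remaining border genes showed small differences or went the other way. *F13a1*, the gene of a clotting factor subunit made by macrophages, had 15.5, 20.1, 16.2 and 16.2 CPM in CDD and 20.1, 16.5, 20.3 and 20.4 CPM in ND. Replicate 2 was the odd brain in both groups, high in CDD and low in ND, and the log2 fold change of -0.19 ± 0.088 (SE) was called, among the fits that left out a brain, only without CDD replicate 2, the library with *Hox* counts. *Lyve1*, a hyaluronan receptor gene, had a log2 fold change of -0.21 and *Stab1* one of -0.10, and the groups overlapped for both. *Stab1* shares its listed interval with *Nt5dc2* on the other strand, which had 37902 counts against 16106 and was higher in CDD (log2 fold change 0.20, edgeR adjusted p = 0.0051). Whether counting used the strand is not stated, so the share of *Nt5dc2* reads in *Stab1* was not tested.

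*Folr2*, the folate receptor gene of macrophages, was the exception in direction. It had 0.543, 0.406, 0.488 and 0.573 CPM in CDD replicates 1 to 4. In ND replicates 1 to 4 it had 0.263, 0.313, 0.231 and 0.348 CPM. All 4 CDD brains lay above all 4 ND brains, with 14 to 21 counts in CDD and 8 to 12 in ND, and the log2 fold change of 0.79 ± 0.32 (SE) was not called. The 95% Poisson interval of the highest ND brain, 0.18 to 0.608 CPM, covers the levels of all 4 CDD brains. The gene overlaps *Gm10602*, a noncoding gene on the other strand with 167 counts against its 111 and a log2 fold change of 0.11.

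**Figure D2:**
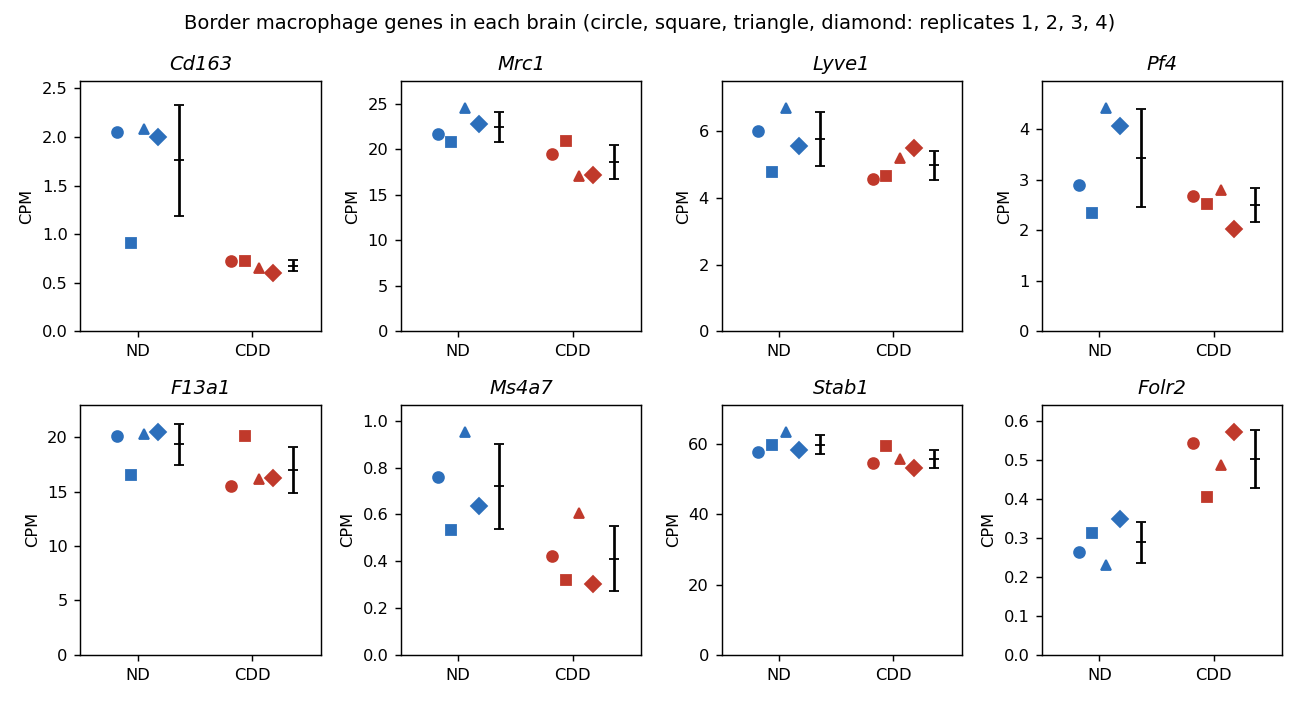
Level (CPM, linear axes from 0) of the 8 border macrophage genes in every brain, ND in blue and CDD in red, with the replicate number given by the symbol and the black bar giving the mean and SD of 4 brains. *Cd163* separates the diets with ND replicate 2 (square) low, *Folr2* separates them in the other direction, and the other 6 genes overlap.

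Over the 31 members, 24 had a log2 fold change below 0 and 7 above 0, where 50.9% of all genes tested lay below 0. The median was -0.24 over the 8 border genes and -0.13 over the 23 microglial and shared genes, beside -0.0038 over all genes tested. Called lower in CDD were *Cd163*, *Mrc1* and *C1qc*, 3 of 31, where 4.59% of all genes tested were called lower. *Sall1* was called higher, 1 of 31, where 4.24% of all genes were. The diets did not overlap for *Cd163*, *C1qc* and *Laptm5* (CDD lower, 7.39% of all genes) and for *Folr2* and *Sall1* (CDD higher, 7.65%). Since the members were chosen with this comparison known, nothing is read from these counts. In ND, replicate 2 was the lowest brain for 6 of the 8 border genes and replicate 3 the highest for 6 of 8. Among the 23 microglial and shared genes, ND replicate 2 was lowest for 7, and over all genes tested it was lowest for 27.9%.

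**Figure D3:**
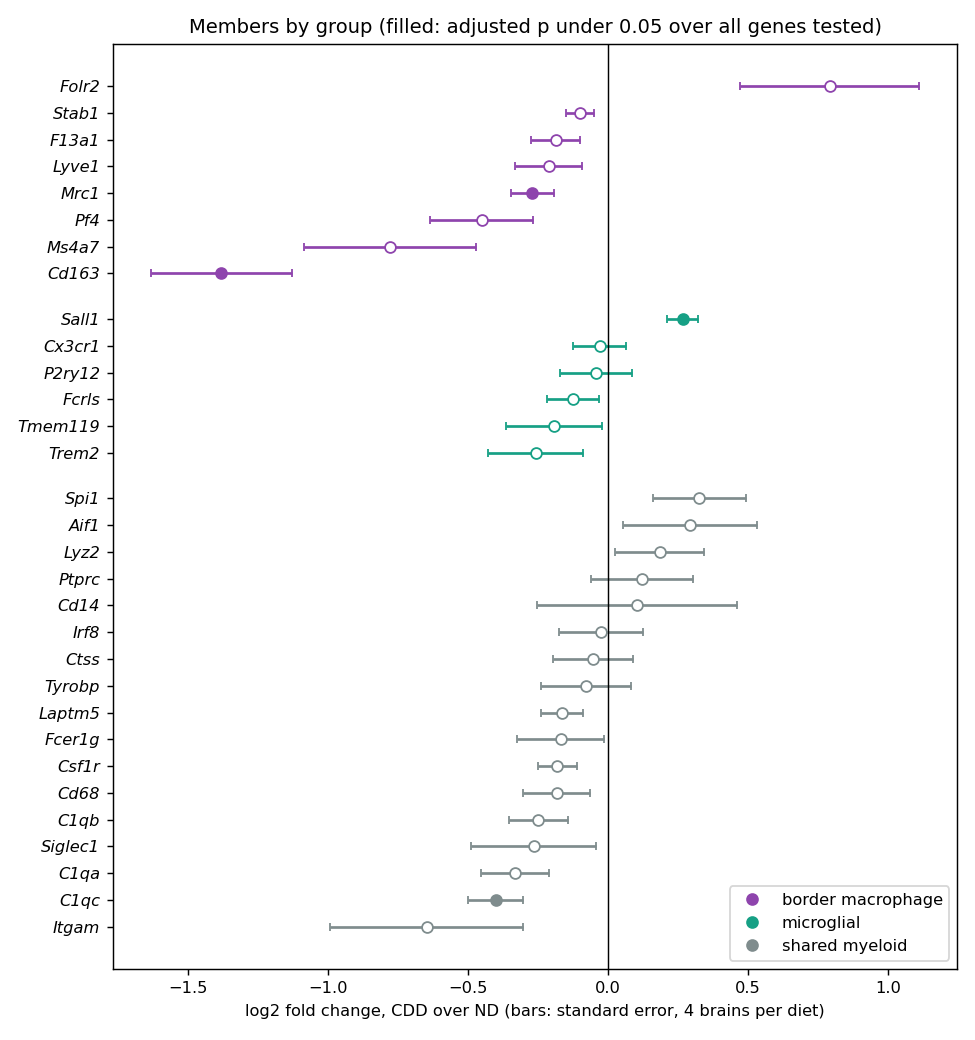
Log2 fold change, CDD over ND, of the 31 members (points) with standard errors from 4 brains per diet (bars), by group, with filled points where the gene was called over all genes tested. *Cd163* lies at -1.38, 3 further called members lie within 0.5 of the zero line, and *Folr2* lies at the opposite end of the border group at 0.79.

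Among the microglial genes, *P2ry12* and *Cx3cr1* differed least between the diets. *P2ry12*, an ADP receptor gene, had 3.08 to 3.44 CPM in CDD and 3.04 to 3.63 CPM in ND (log2 fold change -0.04 ± 0.13, SE). *Cx3cr1*, the fractalkine receptor gene, had 9.53 to 12.04 CPM in CDD and 9.38 to 11.6 CPM in ND (log2 fold change -0.03 ± 0.094, SE). The ranges of the diets overlapped over most of their width for both genes. Each shares its listed interval with a gene of more counts on the other strand, *Med12l* and *Wdr48*, with log2 fold changes of 0.02 and 0.12. The *Cx3cr1* interval also holds *Gorasp1* on the same strand, with 8015 counts against 2933 and a log2 fold change of -0.08, and further genes of fewer counts. *Trem2*, a lipid receptor gene, *Tmem119* and *Fcrls* had log2 fold changes of -0.26, -0.19 and -0.13, and the groups overlapped for all 3.

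*Sall1* was the only microglial gene called. It had 75.99, 75.95, 77.8 and 90.2 CPM in CDD replicates 1 to 4. In ND replicates 1 to 4 it had 63.4, 70.7, 66.2 and 65.8 CPM. The lowest CDD brain was above the highest ND brain, CDD replicate 4 stood out at the top, and the log2 fold change was 0.27 ± 0.055 (SE). The gene is listed on chromosome 8 from 89753863 to 89770790. Leaving out each brain in turn gave log2 fold changes of 0.20 to 0.30. Of the 8 brain genes checked, 2 were called, the neural progenitor genes *Nes* and *Pax6*, which rose in CDD with log2 fold changes of 0.47 and 0.25 (edgeR adjusted p = 0.0034 and 0.0064). *Sox2*, also a progenitor gene, had a log2 fold change of 0.09 (edgeR adjusted p = 0.183). The median over the 8 brain genes was 0.08, with 2 of them below 0, and their part in the *Sall1* level was not tested. *Sall3*, a relative of *Sall1* and one of the most abundant genes in a list of further microglial genes, had a log2 fold change of 0.16 (edgeR adjusted p = 0.157).

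The complement genes *C1qa*, *C1qb* and *C1qc* encode the chains of C1q, which macrophages make and which lie side by side on chromosome 4, with *C1qc* listed from 136617115 to 136620376. *C1qc* had 7.55, 6.46, 7.06 and 5.67 CPM in CDD replicates 1 to 4. In ND replicates 1 to 4 it had 8.89, 8.60, 9.40 and 8.49 CPM. The groups did not overlap, and the log2 fold change was -0.40 ± 0.099 (SE). It did not stay called when either ND replicate 1 or ND replicate 3 was left out. *C1qa* (log2 fold change -0.33 ± 0.12, SE) and *C1qb* (log2 fold change -0.25 ± 0.10, SE) pointed the same way with overlapping groups, and *C1qa* was called without ND replicate 2.

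The receptors and adaptors shared by myeloid cells were less even. *Csf1r*, the receptor that both cell types depend on, had 19.0 to 22.8 CPM in CDD and 22.5 to 25.2 CPM in ND, a log2 fold change of -0.18 ± 0.068 (SE) with CDD replicate 2 alone above the lowest ND brain. *Itgam* had the lowest log2 fold change of the shared genes, -0.65 ± 0.35 (SE), from 8 to 25 counts in a brain. *Siglec1*, a sialic acid binding receptor gene, *Fcer1g* and *Tyrobp*, the genes of signaling adaptors, had log2 fold changes of -0.27, -0.17 and -0.08. Above 0 lay *Aif1*, which encodes IBA1, at 0.29, *Ptprc*, which encodes the pan-leukocyte phosphatase CD45, at 0.12, and *Cd14*, a lipopolysaccharide receptor gene, at 0.10, from only 8 to 18 counts in a brain. The groups overlapped for each of these genes.

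Lysosomal genes and transcription factors completed the set. *Laptm5*, a lysosomal membrane protein gene of blood cells, had 10.7 to 11.996 CPM in CDD and 12.024 to 13.3 CPM in ND, separated by a very small gap, and a log2 fold change of -0.16 ± 0.075 (SE). *Cd68*, *Ctss* and *Lyz2*, which encode a lysosomal glycoprotein, a protease and lysozyme, had log2 fold changes of -0.18, -0.06 and 0.18. The near copy of *Lyz2*, *Lyz1*, had 6 assigned counts in all against 1018, and reads shared between the copies were not examined. *Spi1* had 1.78 to 2.11 CPM in CDD and 1.38 to 1.80 CPM in ND, a log2 fold change of 0.32 ± 0.17 (SE), with CDD replicate 4 just under ND replicate 4. *Irf8*, a factor that acts with PU.1, had a log2 fold change of -0.03.

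The border genes were set against the microglial and shared genes within each brain. The summed level of the 8 border genes was 98.5, 108.9, 98.6 and 95.6 CPM in CDD replicates 1 to 4 and 111.4, 105.8, 122.7 and 114.2 CPM in ND replicates 1 to 4. CDD replicate 2 lay above ND replicate 2, and the other CDD brains lay below all ND brains. *Stab1*, a long transcript, made up 51.1 to 56.5% of that sum. The summed level of the 23 microglial and shared genes was 184.5 ± 4.48 CPM in CDD and 182.5 ± 2.59 CPM in ND (SD, n = 4). The log2 ratio of the sums was -0.88 ± 0.10 in CDD and -0.69 ± 0.075 in ND, a difference of -0.19 (from -0.24 to -0.15 when single brains were omitted). That difference in summed CPM turned on *Sall1*, which alone was 41.1 to 47.4% of the denominator in CDD and 34.97 to 38.9% in ND. Without *Sall1*, the 22 remaining genes summed to 104.5 ± 3.86 CPM in CDD (range 100.3 to 108.8) and 116.0 ± 3.94 CPM in ND (range 111.0 to 120.1), without overlap, and the log2 ratio was -0.06 ± 0.072 in CDD and -0.03 ± 0.053 in ND, a difference of -0.03 that is smaller than either SD. With the 6 microglial genes alone below, *Sall1* included, it differed by -0.34. *Sall1* made up most of that sum too, with 20462 counts over the 8 brains against 573 to 2933 for each other microglial gene. That form was not computed without *Sall1*. Where each gene was given equal weight, as the mean log2 CPM of the border genes less that of the others, the diets differed by -0.22, and by -0.20 without *Sall1*. This measure rested more on *Cd163*, since without *Cd163* it differed by -0.083, and the ranges of the diets overlapped in each of these 3 forms.

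**Figure D4:**
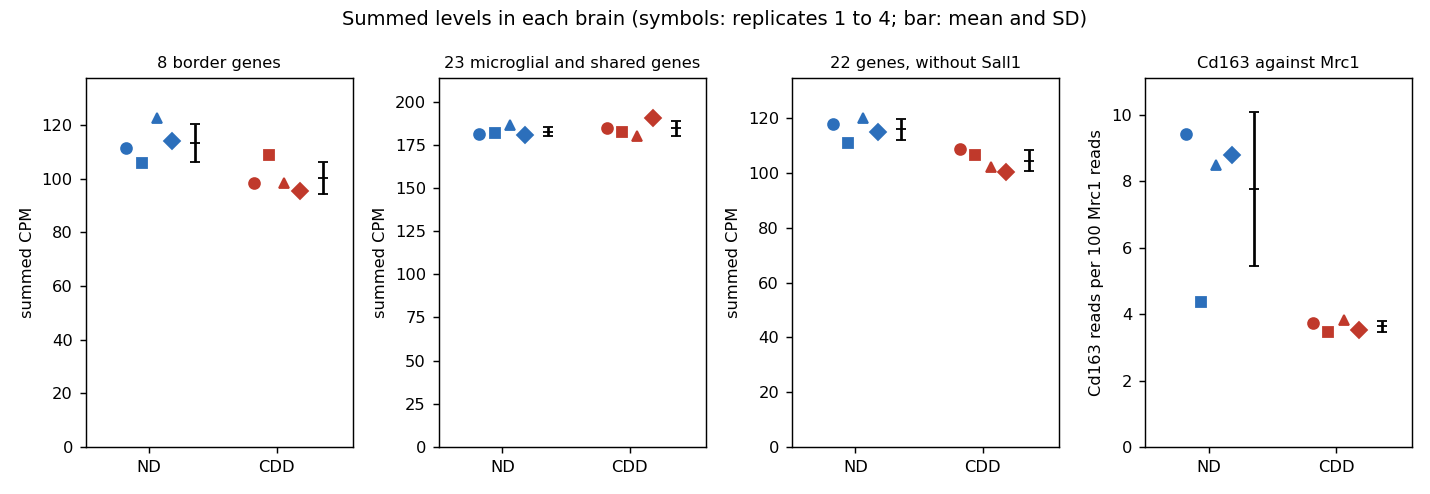
Summed level (CPM) of the 8 border genes, of the 23 microglial and shared genes and of 22 of these without *Sall1*, and *Cd163* reads per 100 *Mrc1* reads, in every brain (ND blue, CDD red, symbols for replicates 1 to 4, bar for mean and SD, axes from 0). The sum over 23 genes overlaps between the diets, the sum without *Sall1* is lower in every CDD brain, and *Cd163* against *Mrc1* is lower in every CDD brain, with ND replicate 2 at 4.36.

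Genes outside the set were tested in the fit across all genes. Of 30 further border macrophage genes, 17 were expressed highly enough to be tested, and edgeR called 0 of them, where 8.83% of all genes tested were called. At an unadjusted p under 0.05 there were 3 of 17, where 23.9% of all genes tested were. DESeq2, which called 2195 of 15986 genes, called 1, *Tgfbi*, higher in CDD. Limma-voom, which called 1414 of 19367 genes, called 0. EdgeR also called *Tgfbi* without CDD replicate 3 or CDD replicate 4. The number called over all genes, 1710, was itself 688, 471 and 615 without ND replicates 1, 3 and 4. The median log2 fold change was -0.05. The most abundant were *Maf*, the gene of a factor of mature macrophages and of other brain cells, at 49.9 ± 5.01 CPM in CDD and 51.9 ± 3.10 CPM in ND, and the endocytic adaptor gene *Dab2*, at 28.9 ± 3.97 and 32.2 ± 1.77 CPM. Of 19 further microglial genes, 16 were tested, and edgeR, DESeq2 and limma-voom called 0. At an unadjusted p under 0.05 there were 4 of 16, beside 23.9% of all genes tested, and the median was -0.11. *Sall3* and *Entpd1*, an enzyme gene that breaks down extracellular ATP, were the most abundant of these, and *Entpd1* had 13.9 ± 0.5 CPM in CDD and 12.98 ± 0.989 CPM in ND.

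Of 31 further genes of blood cells, 28 were tested and 1 was called, where 8.83% of all genes tested were. *Ikzf1*, the gene of the lymphoid and myeloid factor Ikaros, fell in CDD, from 9.59 ± 0.981 CPM in ND to 7.10 ± 0.518 CPM (SD, n = 4, log2 fold change -0.43, edgeR adjusted p = 0.0097), and the call was lost without ND replicate 3, the library with the most adult globin RNA. Without CDD replicate 3, *Coro1a*, an actin regulator gene, was called as well. The median over the 28 was -0.03.

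Of 31 genes for signals that act on macrophages, 26 were tested and 6 were called, 4 lower and 2 higher, where 4.59% and 4.24% of all genes tested were. *Cx3cl1*, the neuronal ligand of *Cx3cr1*, fell from 26.5 ± 1.89 CPM in ND to 20.4 ± 1.35 CPM in CDD (log2 fold change -0.38, edgeR adjusted p = 0.0032), and the call held in 8 of 8 fits without a brain. *Tgfbr1*, a receptor of transforming growth factor beta, rose from 129.1 ± 2.52 to 154.3 ± 14.52 CPM (log2 fold change 0.26, edgeR adjusted p = 0.0066), also in 8 of 8 fits. *Itgb8*, an integrin chain that frees that factor from its latent form, rose too (log2 fold change 0.28, edgeR adjusted p = 0.0286). *Gas6*, a ligand of receptors for the uptake of dying cells, *Cd200*, a neuronal ligand that restrains macrophages, and the chemokine gene *Cxcl12* fell, with log2 fold changes of -0.29, -0.17 and -0.18 (edgeR adjusted p = 0.0115, 0.0213 and 0.0382). *Gas6* was not called without ND replicate 3, and the calls on *Itgb8*, *Cd200* and *Cxcl12* held in 3, 4 and 2 of 8 fits. The count of 6 went down to 3 without ND replicate 1, 2 without ND replicate 3 and 3 without ND replicate 4. The median over the 26 was -0.08.

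Because *Cd163* takes up haemoglobin, 17 genes of haem and iron handling were also examined, and of 15 tested 2 were called, where 8.83% of all genes tested were. *Tfrc*, the transferrin receptor gene, rose from 79.4 ± 2.99 CPM in ND to 96.5 ± 10.6 CPM in CDD (log2 fold change 0.28, edgeR adjusted p = 0.0151). *Trf*, the transferrin gene, fell from 20.1 ± 1.27 to 17.1 ± 0.638 CPM (log2 fold change -0.23, edgeR adjusted p = 0.0419). Neither was called without ND replicate 3 or ND replicate 4, and *Trf* held in 2 of 8 fits. The count of 2 became 4 without CDD replicate 2, 0 without ND replicate 3 or ND replicate 4, and 1 without CDD replicate 1, CDD replicate 4, ND replicate 1 or ND replicate 2. The median over the 15 was -0.02.

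**Figure D5:**
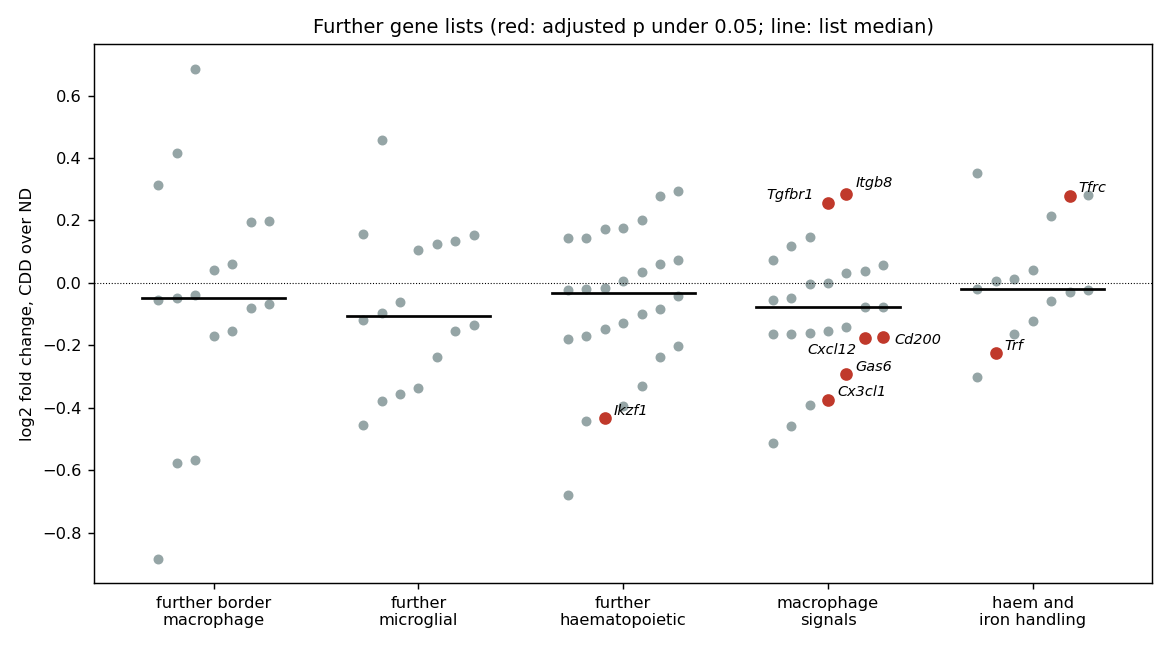
Log2 fold change, CDD over ND, of the tested genes of 5 further lists (points, spread sideways for legibility), with called genes in red and named and a bar at each median. The medians lie between -0.11 and -0.02, and the called genes are 6 signal genes, 2 of haem and iron handling and *Ikzf1*.

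Markers of cells that could share or hide these signals were measured in the same brains. Markers of other myeloid cells were barely present. The 5 monocyte genes measured summed to 0.543 to 0.785 CPM in CDD and 0.376 to 0.995 CPM in ND, with 0 expressed highly enough to be tested, and the most abundant, *Ccr2* and *F10*, had 70 and 61 counts over all 8 brains. The 10 neutrophil genes summed to 0.483 to 1.35 CPM in CDD and 0.87 to 1.55 CPM in ND, with 0 tested. The most abundant of them, *Camp* and *S100a8*, had 52 and 46 counts over all brains, and the defining genes *Ly6g* and *Retnlg* had 2 each. Of 4 mast cell genes 1 was tested, *Hdc* (log2 fold change 0.26), and of 4 lymphocyte genes 1, *Cd79a* (log2 fold change 0.02). Neither was called by edgeR, DESeq2 or limma-voom or had an unadjusted p under 0.05. *Cpa3* and *Cd79b*, the next most abundant, had 17 and 67 counts.

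Some marker genes of cells at the places where border macrophages live differed between the diets, where 8.83% of all genes tested were called. Of 7 meningeal fibroblast genes, 5 were called, the collagen genes *Col1a1* and *Col1a2* and the transporter gene *Slc6a13* lower and *Lum* and *Crabp2* higher. Limma-voom called 2 of them, *Col1a1* and *Slc6a13*, and the edgeR call held in 8 of 8 fits without a brain for *Slc6a13* but in 1 of 8 for *Lum*. Their sum was 289.0 to 317.3 CPM in CDD and 306.2 to 371.6 CPM in ND. Within ND, replicate 2 was lowest for 5 of the 7, for 6 of the 8 border genes and for 27.9% of all genes tested. Within CDD, replicate 3 was lowest for 6 of the 7, for 1 of the 8 border genes and for 24.1% of all genes tested. CDD replicate 4 was lowest for 1 of the 7, for 4 of the 8 border genes and for 31.5% of all genes tested. These ranks are a description only. Of 8 endothelial genes 1 was called, *Cldn5*, lower, and their sum was 263.4 to 281.2 CPM in CDD and 284.3 to 299.9 CPM in ND. Of 5 pericyte genes 1 was called, *Rgs5*, lower, and their sum was 162.1 to 172.7 CPM in CDD and 174.3 to 189.9 CPM in ND. Of 3 genes of lymphatic vessels, which other brain cells also express, *Pdpn* was called, higher. The 5 choroid plexus genes summed to 181.1 to 491.3 CPM in CDD and 280.0 to 323.7 CPM in ND. EdgeR called 0 of them, and 2 had an unadjusted p under 0.05, where 23.9% of all genes tested did. DESeq2 and limma-voom each called 1 of the 5, *Clic6*. *Ttr* was the most abundant of these, at 277.0 ± 120.3 CPM in CDD and 271.5 ± 18.3 CPM in ND, and *Clic6* had 23.2 ± 4.97 and 17.2 ± 1.06 CPM. The part of these cells in the border macrophage levels was not tested.

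Red cell RNA differed as well. The primitive globin genes *Hbb-y* and *Hba-x* rose in CDD, with log2 fold changes of 2.24 and 1.67 (edgeR adjusted p = 0.0065 and 0.0208), and the 3 primitive genes summed to 114.2 to 221.7 CPM in CDD and 33.3 to 45.0 CPM in ND. The 7 definitive red cell genes summed to 631.4 to 1232 CPM in CDD and 792.9 to 2950 CPM in ND, with 0 called by edgeR, DESeq2 or limma-voom and 0 at an unadjusted p under 0.05. The most abundant were *Hba-a1*, at 439.9 ± 109.0 CPM in CDD and 687.2 ± 383.5 CPM in ND, and *Hbb-bs*, at 373.1 ± 107.8 and 668.6 ± 361.1 CPM. In ND replicates 1 to 4 the definitive sum was 1582, 792.9, 2950 and 1214 CPM, beside 2.05, 0.907, 2.08 and 2.00 CPM of *Cd163*. In CDD replicates 1 to 4 it was 1232, 1142, 970.9 and 631.4 CPM, beside 0.725, 0.724, 0.65 and 0.603 CPM of *Cd163*. Within each diet the 4 brains stood in the same order for both, but that order includes near ties in *Cd163*. ND replicates 1, 3 and 4 had 70, 72 and 69 counts of it, and CDD replicates 1 and 2 had 24 and 25. The 95% Poisson intervals overlap within each of these sets, so the order is a description only. CDD replicates 1, 2 and 3 had more definitive red cell RNA than ND replicate 2 and less *Cd163*. Without ND replicate 3, the highest in this RNA, the log2 fold change of *Cd163* was -1.29. The part of red cell RNA in its level was not tested.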

How the data were processed

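Poly-A RNA of 8 E14.5 wild-type whole brains (4 CDD, 4 ND) had been sequenced, and the labels' maternal diet set the groups. The files deposited by the authors give the raw count of reads for each gene in each brain, and FPKM values per kilobase of the listed gene length. Within a brain the FPKM is the count per length times a constant. The submitters' processing notes name HISAT2 2.0.5, featureCounts 1.5.0-p3 and DESeq2 1.20.0, and the genome build is not given in the sources used here. A further 8 columns of normalized values per brain, and the authors' own fold changes and p-values for the diets, were not used.

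The deposited counts were filtered with filterByExpr, which left 19367 genes. They were scaled by TMM and entered the robust quasi-likelihood test of edgeR 4.0.16, with diet as the single term, all 8 brains in the fit and Benjamini-Hochberg adjustment over all genes tested. The common biological coefficient of variation was 0.0814. Log2 fold changes are CDD over ND. The same fit gave the members' values, for which no p-value is printed. Also used were matplotlib 3.10.9, limma 3.58.1, SciPy 1.17.1, DESeq2 1.42.0, pandas 2.3.3, R 4.3.3, NumPy 2.4.6 and Python 3.11.15. The test was checked on simulated counts that gave every gene a biological coefficient of variation of 0.08. Its medians over the members were higher, at 0.134 (border) and 0.121 (microglial and shared). At a simulated log2 fold change of 0.5, 42 of 58 changed genes were recovered. Promoters came from RefSeq on GRCm38.p6.

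The members, the further lists and the tests were chosen with earlier results of these data known. Named were all 31 members, every called gene of the other lists and, where a list had none, its 2 most abundant genes. *Tgfbi*, *Ly6g*, *Retnlg*, *Nt5dc2*, *Gm10602*, *Med12l*, *Wdr48*, *Gorasp1*, *Lyz1*, *Coro1a*, *Hmgxb3*, *Sox2*, *Tubb3* and *Dcx* are named outside that rule. Alternatives were other normalizations, filters and tests, the replicate number as a block and leaving out each brain. Intervals are exact Poisson intervals and cover counting error only.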

Additional observations from a re-analysis of the deposited data

Results flagged for a closer look

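A brain was marked where the gap between it and its nearest neighbour took up most of the range of its group of 4 (Dixon's test at the 95% level). Over the 31 members, the ratio of border to other members and the called genes of the further lists, 82 groups of 4 brains were examined and 7 were marked, where chance gives about 1 in 20, or 4.1. *Cd163* was lowest in ND replicate 2, at 0.907 CPM, with the next ND brain at 2.00 CPM. *F13a1* was lowest in the same brain, at 16.5 CPM with the next at 20.1 CPM, and so was *Cd200*, at 125.3 CPM with the next at 136.0 CPM. *F13a1* was also marked in CDD, where replicate 2 was highest at 20.1 CPM with the next at 16.2 CPM. *Tmem119* was lowest in that brain, at 1.83 CPM with the next at 2.46 CPM. *Trem2* was highest in CDD replicate 3, at 2.37 CPM with the next at 1.74 CPM. *Sall1* was highest in CDD replicate 4, at 90.2 CPM with the next at 77.8 CPM.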

How the results depend on the processing

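For the 31 members, all 462 log2 fold changes under other settings stayed within 1 SD between brains of the main value. Leaving out a single brain of 4 can hardly move a mean that far, so for those fits this was largely fixed in advance. The calls on *Cd163*, *Mrc1*, *C1qc* and *Sall1* held under the other normalizations, filters and tests, but those on *Mrc1* and *C1qc* did not hold in every fit without a brain. Leaving out each brain in turn, the number of all genes called ranged from 471 (without ND replicate 3) to 2495 (without CDD replicate 3), beside 1710. It gave 1 to 3 border members, 1 to 3 microglial and shared members, 0 to 1 further border genes, 0 to 2 further blood cell genes, 2 to 6 signal genes and 0 to 4 haem and iron genes. *Tgfbi* was called among the further border genes by DESeq2 (1 called) and with no filter on low counts (1 called). *Coro1a* joined *Ikzf1* under DESeq2, with no filter and with at least 10 counts in every brain (2 called in each). Limma-voom called 1 haem and iron gene, *Tfrc*. The difference in log2 ratio of border to other members, -0.19, was -0.34 over microglial genes alone, *Sall1* included. It was -0.027 over the microglial and shared genes without *Sall1*. As mean log2 CPM over genes it was -0.083 without *Cd163* and -0.20 without *Sall1*, all 3 omissions chosen after seeing the data. For changes other than the fewer brains or genes in a fit, the cause was not tested.

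Samples of the 2 diets share replicate numbers, but the numbers did not pair them: the deviations of same-numbered brains correlated at 0.105, -0.133, 0.117 and 0.232 over all genes tested. With the replicate number as a block, 1812 genes were called, with 1 further border gene (*Tgfbi*), 2 blood cell genes and 1 haem and iron gene, while both groups of members, the further microglial genes and the signal genes kept their counts. The block was not run for the cell type lists.

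With 8 to 33 counts in a brain, *Folr2*, *Ms4a7*, *Itgam* and *Cd14* are limited by depth, and *Cd163* by 20 to 72. *Aif1* and *Siglec1* are limited too, with 232 and 266 counts over all 8 brains, against 337 for *Cd163*.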
